A study of Mus musculus with 6 samples.

Results

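The kinesins are the 41 genes of the count table whose symbols have the form Kif plus a number, or Kifc plus a number, out of 17189 genes listed. Of these, 12 were set apart as mitotic kinesins (Kif11, Kif23, Kif20a, Kif20b, Kif2c, Kif4, Kif14, Kif15, Kif18a, Kif18b, Kif22 and Kifc1), and the other 29 were taken as the comparison. The rule uses symbols and known roles. RNA was sequenced from ureteric bud lineage cells, the epithelium that branches into the collecting ducts of the kidney, sorted by flow cytometry from mouse embryos at E16.5. The 3 control libraries have the genotype Hoxb7Cre-GFP+, Ash2l F/+, and the 3 conditional knockout (cKO) libraries have Hoxb7Cre-GFP+, Ash2l F/F. Both groups therefore carry the Cre-GFP transgene under the ureteric Hoxb7 promoter, and the controls also carry 1 floxed allele of Ash2l, which encodes a core subunit of histone H3 lysine 4 methyltransferase complexes. The labels call the libraries of each group biological replicates and do not say whether a library is 1 embryo or a pool.

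Kinesins are motor proteins that use ATP to move along microtubules or to take their ends apart. One set is made mainly by dividing cells, where its members build the bipolar spindle, move chromosomes and complete cytokinesis. Many of the other members carry vesicles, organelles and ciliary cargo in cells whether or not they divide, though some, such as Kif2a, act at the spindle. In the embryonic kidney the ureteric tips are highly proliferative, and the ciliary motor of the kinesin-2 family is known for its part in cystic kidney disease.

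Library totals ranged from 9620235 to 10538314 counts. Per library, in the order of replicates 1, 2 and 3 used throughout, Ash2l gave 1933, 1853 and 1624 reads in the controls against 451, 292 and 214 in the cKO libraries (log2 fold change -2.43, SE 0.284, edgeR adjusted p = 0.00786). Library cKO replicate 3 stood apart, since it listed 0 for 1453 of the 11738 genes (12.4%) with over 10 reads everywhere else. Among them were 6 of the 32 kinesins that met the same condition, namely Kif11, Kif4, Kif14, Kif17, Kif1a and Kif24. Such zeros include genes that dividing cells need, so those values are given as listed and results are also given without that library. Reads of the Y-linked genes Ddx3y, Uty and Kdm5d were present in each control (95 to 1044 counts) and in no cKO library. A further Y-linked gene, Eif2s3y, gave 736, 815 and 439 reads in the controls against 0, 0 and 504 in the cKO libraries, so cKO replicate 3 differed from the other cKO libraries in this too. Y-linked reads were thus unequal between the groups, and their part in the results was not tested. Without cKO replicate 3, all of these Y-linked genes had reads in every control and in no cKO library. In the results given without that library, genotype and Y-linked reads therefore cannot be told apart. Of 12 ureteric epithelium markers, all were detected in every library, with a summed level of 11667 to 12934 CPM (reads scaled to library size) in controls and 7171 to 8115 CPM in cKO. At an edgeR adjusted p under 0.05, 5 of the 12 fell (Hoxb7, Gata3, Calb1, Wnt11 and Epcam), where 3.59% of all genes tested fell. All 12 had a negative log2 fold change (median -0.70). In 9 of them every cKO library was below every control, an order found for 20.7% of all genes tested.

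Per length, mitotic kinesins made up most kinesin transcripts in control cells and less in cKO cells. Summed over the 12 genes, the deposited FPKM (fragments scaled by gene length and library size) was 389, 336 and 341 in control replicates 1, 2 and 3 and 164, 107 and 159 in cKO replicates 1, 2 and 3. The 29 other kinesins summed to 151, 160 and 130 FPKM in controls and to 171, 151 and 184 FPKM in cKO. The mitotic share of all kinesin FPKM was 72.0%, 67.8% and 72.4% in controls and 48.9%, 41.5% and 46.4% in cKO. Every cKO library was below every control in the mitotic sum, while the sums of the other kinesins overlapped. In bulk RNA, fewer dividing cells and less transcript in each cell cannot be told apart.

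**Figure D1:**
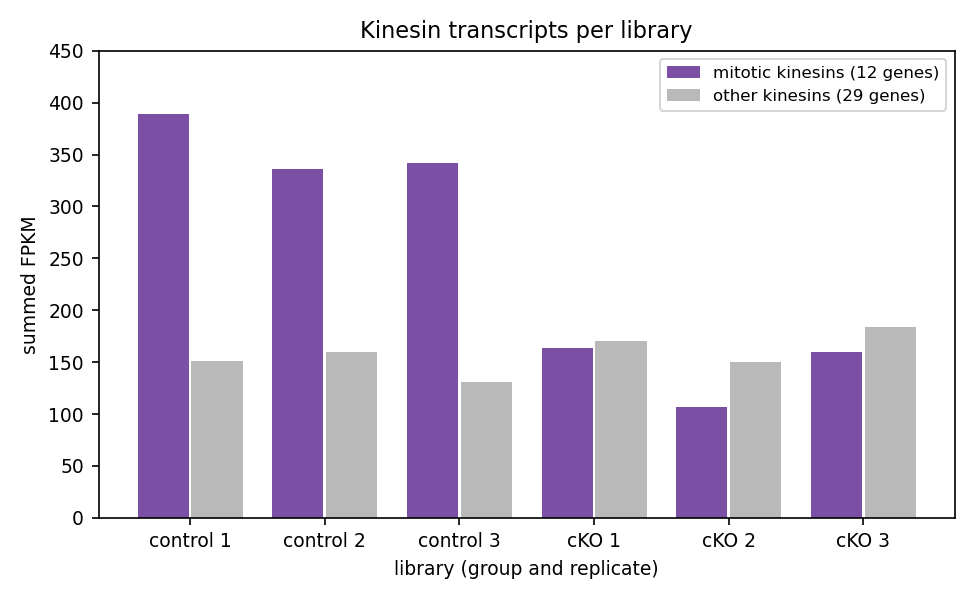
Summed FPKM (y axis) of the 12 mitotic kinesins (purple) and the 29 other kinesins (grey) in each library (x axis). The mitotic bars stand at 336 to 389 FPKM in the controls and at 107 to 164 FPKM in cKO, and the grey bars of both groups lie between 130 and 184 FPKM.

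By single genes, Kif22, a chromosome-bound motor, had the highest control level (105 ± 14.2 FPKM, SD, n = 3), followed by the cytokinesis motor Kif20a (70.6 ± 7.99 FPKM). Next came Kif12, a kinesin of kidney epithelium, at 52.1 ± 10.4 FPKM, and Kif5b, the widely expressed heavy chain of conventional kinesin, followed at 44.1 ± 4.15 FPKM. Kif12 and Kif5b did not differ beyond their SDs, while Kif22 stood above the rest by more than its SD. In cKO the order was Kif12 (55.1 ± 5.40 FPKM), Kif5b (50.2 ± 8.57 FPKM), Kif22 (42.1 ± 17.5 FPKM) and Kif20a (35.3 ± 7.32 FPKM), where neighbours did not differ beyond their SDs. At the low end of the control order stood Kif19a and Kif28, at 0.00921 and 0.017 FPKM.

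In cKO cells 5 of the 12 mitotic kinesins fell and none rose. The fallers were Kif20a, Kif20b, Kif2c, Kif15 and Kif22, at an edgeR adjusted p under 0.05 over the 13047 genes tested, of which 3.59% fell, 3.52% rose and 7.11% were called in either direction. All 12 were tested, and all 12 had a lower level in every cKO library than in any control, an order found for 20.7% of the genes tested. Their median log2 fold change was -1.55, between -2.41 for Kif11 and -0.99 for Kif23, against a median of -0.04 over all genes tested. None of the 26 other kinesins tested was called (median 0.32), and 3 more did not pass the filter on low counts (Kif19a, Kif26a and Kif28). Of the 26, 4 had every cKO library below every control and 2 every cKO library above, so 6 did not overlap, where 37.4% of all genes tested did not. At an unadjusted p under 0.05 edgeR had 2 of these 26 (Kif3a and Kif16b). The DESeq2 Wald test called 1 (Kif3a), limma-voom called none, and limma-voom with library weights called both. Without cKO replicate 3, 10 of 12 mitotic kinesins fell, against 14.9% of the 13660 genes then tested, and the median was -1.56. The count depended on the libraries: without control replicate 1, 2 or 3 or cKO replicate 2 none of the 12 was called, and without cKO replicate 1 there were 3 (Kif18a, Kif20a and Kif2c).

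**Figure D2:**
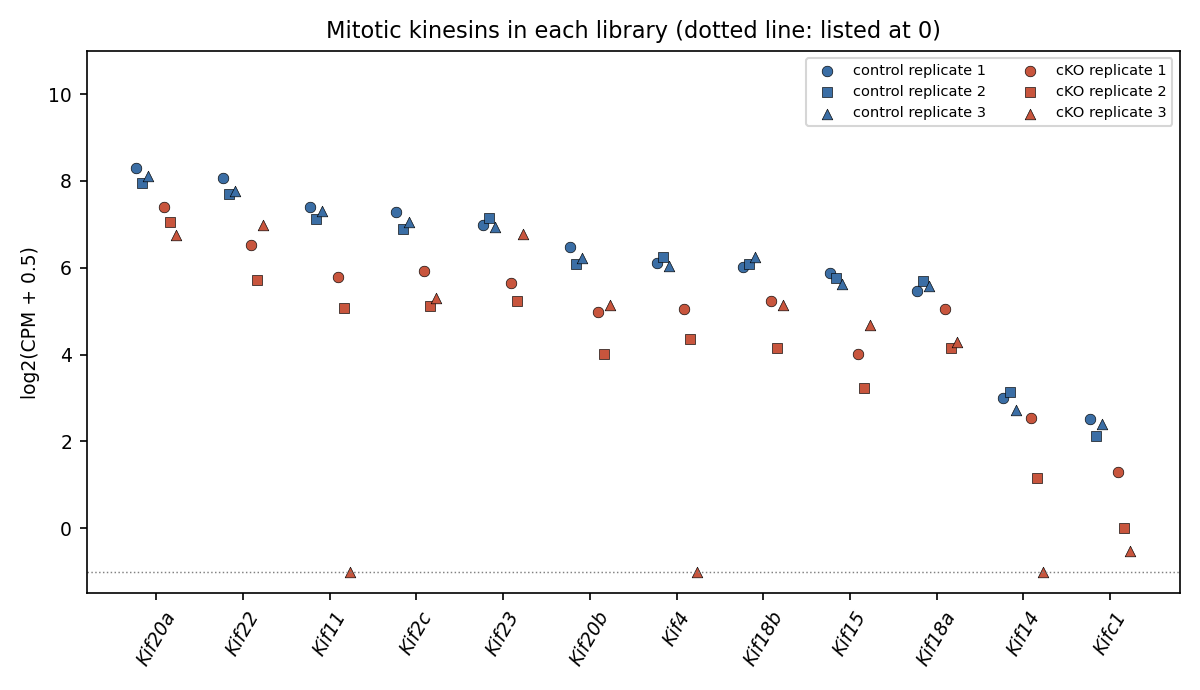
Level of each mitotic kinesin as log2(CPM + 0.5) (y axis) in control (blue) and cKO (red) libraries, with a symbol for each replicate and genes ordered by control mean. For every gene the 3 red symbols lie below the 3 blue ones, and the red triangles of Kif11, Kif4 and Kif14 lie on the dotted line of genes listed at 0.

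Mitotic kinesin genes are known targets of cell cycle promoter control through the cell cycle homology region, a short element bound by the DREAM and MuvB complexes near the start of G2/M genes. RefSeq promoters of the kinesins (GRCm38.p6, 250 bases before to 50 after the start) were searched for its core TTTGAA on both strands. The part of this element in the lower levels was not tested. The element was present in 10 of the 11 mitotic kinesins with a promoter in the table, and in 4 of 21 other kinesins (Kif1a, Kif26b, Kif27 and Kifc5b). Of all 27025 genes with a promoter there, 20.2% had it, and so did 14.6% of the 10463 matched among the genes tested. With its centre within 25 bases of the start, a window chosen after the matches were seen, it stood in 8 of the 11 mitotic kinesins. That placing held for 1 of 21 other kinesins (Kif26b) and for 3.18% of all genes in the table. The 8 stretches are shown from 75 bases before the start to 25 after it, 5′ to 3′ on the gene's strand, to let the position of the element be compared, with the core or its reverse complement TTCAAA in capitals.

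Kif22 (chr7:127042396-127042495, - strand): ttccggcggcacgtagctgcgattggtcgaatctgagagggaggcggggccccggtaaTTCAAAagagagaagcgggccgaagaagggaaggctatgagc
Kif23 (chr9:61946775-61946874, - strand): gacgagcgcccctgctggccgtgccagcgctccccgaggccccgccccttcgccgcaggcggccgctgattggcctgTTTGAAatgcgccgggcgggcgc
Kif15 (chr9:122951006-122951105, + strand): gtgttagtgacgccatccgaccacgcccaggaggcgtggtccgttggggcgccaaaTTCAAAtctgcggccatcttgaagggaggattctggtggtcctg
Kif18b (chr11:102925100-102925199, - strand): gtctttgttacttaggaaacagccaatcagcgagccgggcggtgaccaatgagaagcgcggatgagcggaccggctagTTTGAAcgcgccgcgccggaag
Kifc1 (chr17:33890609-33890708, - strand): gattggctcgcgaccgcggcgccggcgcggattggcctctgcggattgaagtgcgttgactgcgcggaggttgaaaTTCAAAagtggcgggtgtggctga
Kif20b (chr19:34922283-34922382, + strand): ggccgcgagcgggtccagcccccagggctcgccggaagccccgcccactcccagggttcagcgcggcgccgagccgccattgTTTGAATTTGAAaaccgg
Kif11 (chr19:37376307-37376406, + strand): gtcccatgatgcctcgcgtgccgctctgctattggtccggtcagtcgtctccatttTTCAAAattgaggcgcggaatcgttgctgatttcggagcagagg
Kif4 (chrX:100625990-100626089, + strand): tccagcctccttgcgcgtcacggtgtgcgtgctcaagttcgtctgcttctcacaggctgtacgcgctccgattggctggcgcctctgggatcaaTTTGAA

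In Kif11, Kif15 and Kif22 the reverse complement lies before the start, with its centre at -16, -16 and -14 bases. Kif15 and Kif22 each have 1 more match far upstream, at -231 and -212. In Kifc1 it lies just after the start, at 4 bases. In Kif23, Kif18b, Kif20b and Kif4 the core reads forward just after the start, at 5, 6, 10 and 22 bases, and Kif20b carries it as a tandem pair with a second centre at 16. In Kif14 and Kif2c the only match lies farther upstream, centred at -225 and -100, and Kif18a had none in this window. The CCAAT box, a second element of such promoters, was found in 7 of 11 mitotic and 8 of 21 other kinesins, against 41.1% of all genes in that source. No CCAAT match shared a base with a TTTGAA match in these promoters. Start sites differ between annotations, which shifts these distances, and the coordinates are of GRCm38.p6 while the submitters' processing notes name GRCm39.

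**Figure D3:**
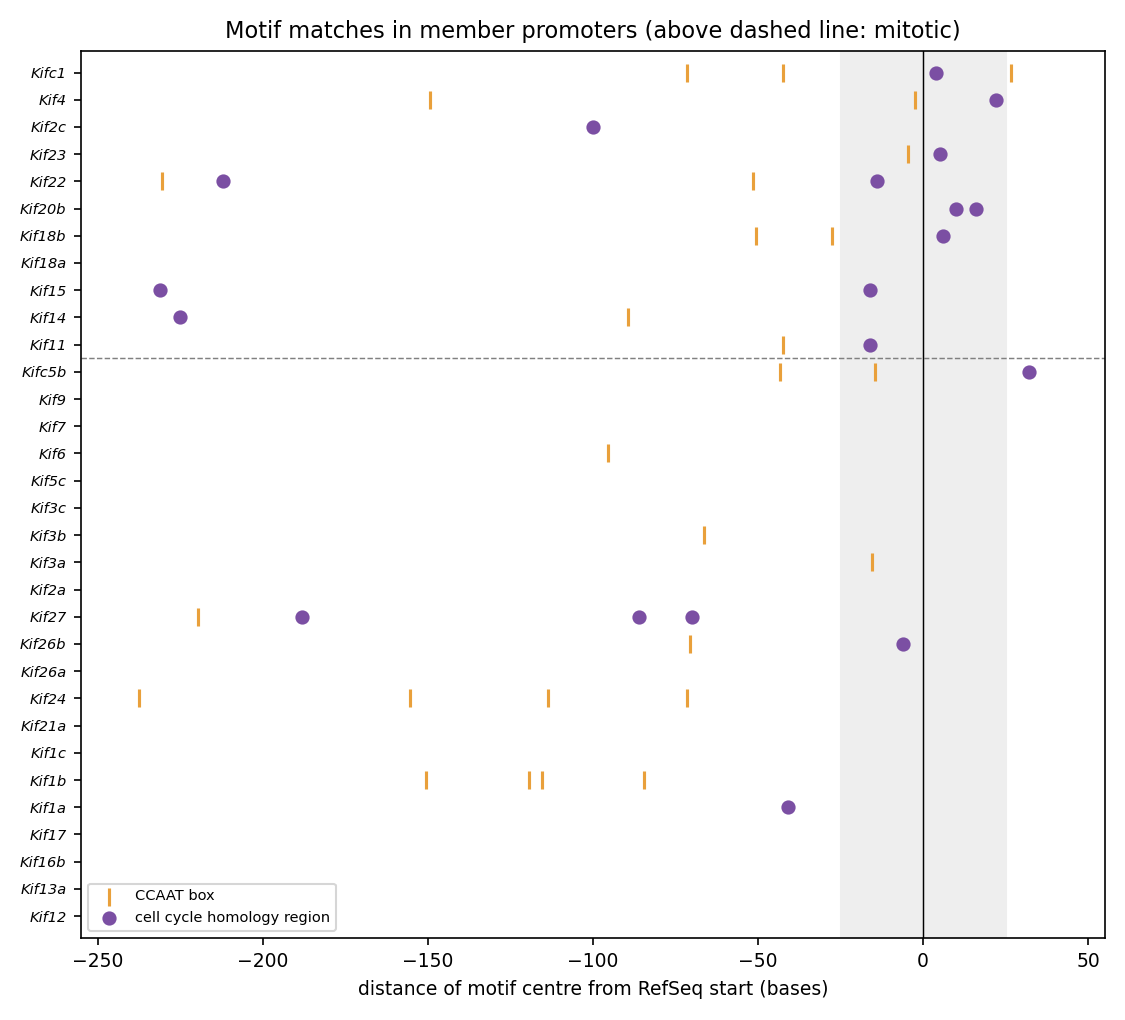
Distance of motif centres from the RefSeq start in bases (x axis) for the 32 kinesins with a promoter in the table, with mitotic kinesins above the dashed line. Purple dots are matches of the cell cycle homology region and orange ticks are CCAAT boxes. In the grey band of 25 bases on either side of the start, purple dots stand in 8 of 11 mitotic and 1 of 21 other kinesins.

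The spindle-building motors include Kif11 (kinesin-5), which slides antiparallel microtubules apart, Kif15 (kinesin-12), which backs it up, and Kifc1 (kinesin-14), which pulls the opposite way. Kif11 (Entrez Gene 16551) gave 1726, 1459 and 1616 reads in the controls against 536, 326 and 0 in the cKO libraries. It was not called with 6 libraries (log2 fold change -2.41, SE 1.18, edgeR adjusted p = 0.288), and it fell without cKO replicate 3 (-1.83, SE 0.192, adjusted p = 3.4e-05). The 2 cKO libraries with reads were at 35.2% and 21.3% of the control mean. Kif15 (Entrez Gene 209737) gave 591, 571 and 503 reads in the controls against 154, 88 and 251 in the cKO libraries. It fell from 53.8 ± 4.45 CPM to 16.6 ± 8.09 CPM, a log2 fold change of -1.70 (SE 0.379, edgeR adjusted p = 0.0477), and it fell by 2.13 without cKO replicate 3. Its level in cKO replicate 3 was the highest of the cKO group but still below every control. Kifc1 was scarce, with 53, 41 and 49 reads in the controls against 19, 5 and 2 in the cKO libraries (log2 fold change -2.38, SE 1.05, edgeR adjusted p = 0.239). Its close copy Kifc5b gave 11, 33 and 15 reads in the controls against 9, 5 and 11 in the cKO libraries, and counting can split reads between them. Summed, the pair gave 64, 74 and 64 reads in the controls against 28, 10 and 13 in the cKO libraries (log2 fold change -1.91, SE 0.753, edgeR adjusted p = 0.189).

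Motors that act on chromosomes and their attachment comprise Kif22 and Kif4, which bind chromatin, Kif18a and Kif18b, which regulate microtubule plus ends, and Kif2c (also called MCAK), which depolymerises microtubules at kinetochores. Kif2c (Entrez Gene 73804) gave 1590, 1247 and 1350 reads in the controls against 591, 337 and 392 in the cKO libraries. It fell from 136 ± 19.0 CPM to 44.6 ± 13.9 CPM, a log2 fold change of -1.6 (SE 0.243, edgeR adjusted p = 0.015), which was the smallest p of the 12. Kif22 (110033) gave 2718, 2182 and 2230 reads in the controls against 892, 514 and 1263 in the cKO libraries, with no overlap. It fell by 1.36 on the log2 scale (SE 0.308, edgeR adjusted p = 0.049), close to the threshold, and it fell by 1.70 without cKO replicate 3. With DESeq2 size factors the adjusted p of Kif22 was 0.0512. Kif4 gave 694, 791 and 674 reads in the controls against 318, 198 and 0 in the cKO libraries. The 3 cKO values of Kif4 spread from 0% to 46.6% of the control mean, and it was called only without the library listed at 0, of the 6 libraries left out in turn (log2 fold change -1.42, SE 0.204, adjusted p = 0.000213). Kif18a gave 444, 536 and 482 reads in the controls against 322, 171 and 192 in the cKO libraries, and Kif18b gave 659, 709 and 768 against 365, 171 and 348. Neither was called with 6 libraries (edgeR adjusted p = 0.0889 and 0.0634), and both fell without cKO replicate 3 (-0.92 and -1.35, adjusted p = 0.0115 and 0.00285). The RefSeq span of Kif18a overlaps Mettl15, which was not called (log2 fold change -0.08).

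The kinesin-6 motors and Kif14 act at the central spindle and midbody. Kif20a (Entrez Gene 19348), which carries the chromosomal passenger complex there, gave 3209, 2618 and 2828 reads in the controls against 1652, 1303 and 1084 in the cKO libraries. It fell from 280 ± 33.1 CPM to 136 ± 30.5 CPM, a log2 fold change of -1.04 (SE 0.182, edgeR adjusted p = 0.0239). The annotated span of Kif20a overlaps those of Cdc23 (-0.47, adjusted p = 0.209) and Brd8 (0.22, adjusted p = 0.684), and no source used here states whether counting used strand. Kif20b (240641), which works late in cytokinesis, gave 908, 714 and 765 reads in the controls against 307, 155 and 349 in the cKO libraries. Its level fell from 77.3 ± 10.8 CPM to 27.3 ± 10.2 CPM, a log2 fold change of -1.5 (SE 0.316, edgeR adjusted p = 0.0405). Kif23, the motor subunit of centralspindlin, gave 1287, 1485 and 1254 reads in the controls against 487, 369 and 1091 in the cKO libraries. In cKO replicate 3 it stood at 83.7% of the control mean, against 38.2% and 28.8% in the other cKO libraries. Kif23 was not called with that library (log2 fold change -0.99, SE 0.381, edgeR adjusted p = 0.181) and fell without it (-1.59, SE 0.151, adjusted p = 7.97e-06). Kif14, which brings citron kinase to the midbody, gave 77, 87 and 62 reads in the controls against 52, 17 and 0 in the cKO libraries. It was not called with cKO replicate 3 or without it (edgeR adjusted p = 0.559 and 0.132).

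The 12 genes did not drop by the same amount in each library. Relative to the control mean, their median level was 43.2% in cKO replicate 1, 24.4% in cKO replicate 2 and 39.6% in cKO replicate 3. All 12 were lower in cKO replicate 2 than in cKO replicate 1, where the 26 other kinesins were split (11 lower). In cKO replicate 1 the range ran from 29.2% for Kif15 to 72.8% for Kif14, and 8 of 12 genes were under 50%. In cKO replicate 2 all 12 were under 50%, from 11% for Kifc1 to 47.2% for Kif20a. In cKO replicate 3 the same genes spread from 0% to 83.7%, with 4 above and 5 below both other cKO libraries. Each of the 12 kept a negative fold change under every other setting in which it was tested (193 values, 0 above 0).

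**Figure D4:**
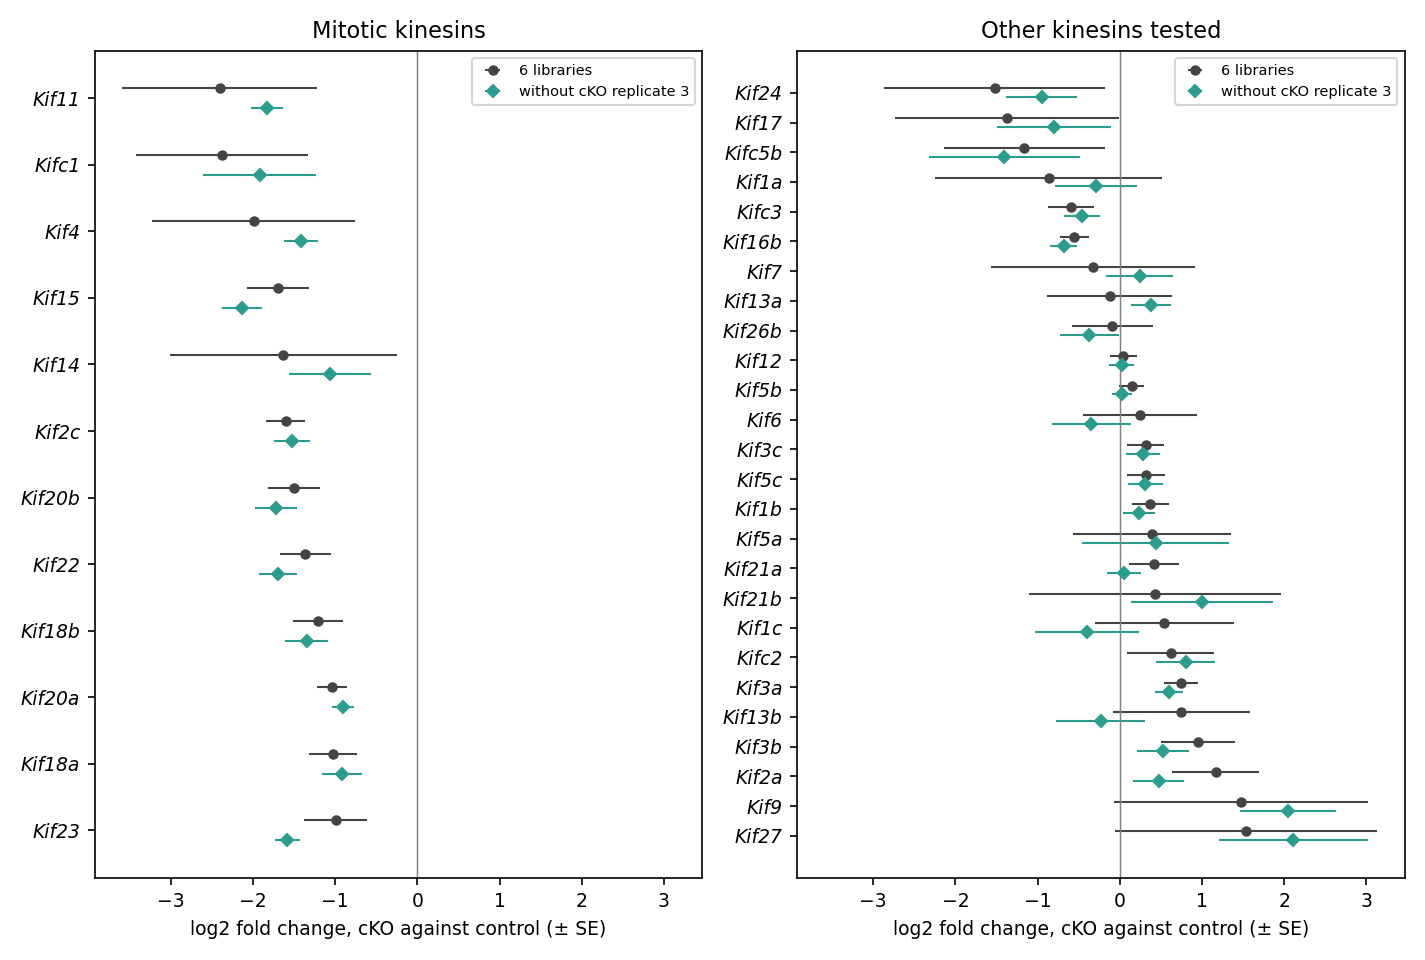
Log2 fold change of cKO against control (x axis, bars are SE) for the 12 mitotic kinesins and the 26 other kinesins tested, with all 6 libraries (black) and without cKO replicate 3 (green). All mitotic values lie between -2.41 and -0.91, and the other kinesins lie on both sides of 0, from -1.52 to 2.11.

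Among kinesins that work in cilia, Kif3a was higher in every cKO library but was not called with all 6. That order was found for 16.7% of all genes tested. Kif3a, a motor subunit of the heterotrimer that drives transport into the cilium, gave 583, 795 and 713 reads in the controls against 1184, 841 and 1339 in the cKO libraries, with every cKO library higher. Its mean went from 67.5 ± 9.40 CPM to 113 ± 25 CPM, a log2 fold change of 0.75 (SE 0.204, edgeR adjusted p = 0.0805). Without cKO replicate 3 Kif3a rose (0.60, SE 0.168, adjusted p = 0.0162), where 13.7% of genes tested rose. Its partner Kif3b gave 82, 149 and 93 reads in the controls against 133, 165 and 303 in the cKO libraries, with overlap (0.95, SE 0.451, edgeR adjusted p = 0.271). Kifap3, the non-motor subunit of the same complex and no kinesin by symbol, rose from 51.3 ± 7.32 to 83.3 ± 5.12 CPM (0.70, SE 0.157, edgeR adjusted p = 0.0478). Kif17, a second ciliary motor of this family, gave only 29, 27 and 26 reads in the controls against 13, 17 and 0 in the cKO libraries and was not called. Kif7, which sits at the cilium tip in Hedgehog signalling, gave 83, 112 and 40 reads in the controls against 81, 96 and 1 in the cKO libraries. Its direction turned with that last library, from -0.33 (SE 1.24) with it to 0.24 (SE 0.412) without it. Its span overlaps that of Ticrr, a replication gene (-1.03, adjusted p = 0.151).

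Kif9 and Kif27, kinesins linked to motile cilia, were low in all libraries. Kif9 gave 27, 14 and 9 reads in the controls against 62, 71 and 0 in the cKO libraries. It was not called with 6 libraries (1.47, SE 1.54, edgeR adjusted p = 0.65) and rose without cKO replicate 3 (2.05, SE 0.581, adjusted p = 0.0178). Kif27 gave 11, 3 and 3 reads in the controls against 20, 28 and 0 in the cKO libraries (2.11 without that library, adjusted p = 0.1). Kif6, of the kinesin-9 family as is Kif9, had a fold change of 0.25 with overlapping groups and was not called. Without cKO replicate 3 Kif6 turned to -0.35, against the direction of Kif9 and Kif27. In the same libraries the 5 markers of multiciliated cells summed to 1.81 to 3.14 CPM in controls and to 7.77, 7.51 and 0.2 CPM in cKO replicates 1, 2 and 3. Of these markers Mcidas was at 0 in 5 of the 6 libraries and Foxj1 had 1 to 10 counts. Their part in the levels of Kif9 and Kif27 was not tested. Kif19a, also of motile cilia, did not pass the filter, with 0, 1 and 0 reads in the controls against 3, 5 and 4 in the cKO libraries. Kif24, which acts at centrioles to hold back cilia, gave 97, 72 and 61 reads in the controls against 45, 31 and 0 in the cKO libraries. All cKO values of Kif24 were below the controls, but it was not called with 6 libraries or without cKO replicate 3 (edgeR adjusted p = 0.579 and 0.117).

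No cargo motor of the cytoplasm was called with 6 libraries. Kif5b gave 2998, 2841 and 2519 reads in the controls against 3058, 2379 and 3432 in the cKO libraries, and the groups overlapped (log2 fold change 0.14, SE 0.149, edgeR adjusted p = 0.642). Its neuron-enriched relatives Kif5a (5 to 14 counts per library) and Kif5c (306 to 502 counts) had fold changes of 0.40 and 0.32 and were not called. In the kinesin-3 family, which carries vesicles and endosomes, Kif16b gave 609, 570 and 631 reads in the controls against 334, 389 and 462 in the cKO libraries, with every cKO library lower. This endosomal motor was not called with 6 libraries (-0.55, SE 0.179, edgeR adjusted p = 0.122) and fell without cKO replicate 3 (-0.68, SE 0.164, adjusted p = 0.00732). Kif1b (0.37), Kif1c (0.54), Kif13a (-0.12), Kif13b (0.75) and the neuronal Kif1a (-0.87) were not called. For Kif1c, Kif13a and Kif13b the direction turned without cKO replicate 3 (-0.40, 0.38 and -0.23), where their counts had been 82, 29 and 171 against 20 to 23, 219 to 330 and 18 to 68 in the other cKO libraries. Kif21a, Kif21b and Kif3c had fold changes of 0.41, 0.43 and 0.31 with overlapping groups. Kifc3, a minus-end motor of epithelial junctions, was lower in every cKO library (248, 245 and 306 counts against 177, 195 and 136) and was not called (-0.59, SE 0.280, edgeR adjusted p = 0.268).

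Neither Kif12 nor Kif26b, further kinesins linked to the kidney, was called. Kif12 gave 1954, 2315 and 1540 reads in the controls against 2088, 1677 and 1962 in the cKO libraries. The means were 188 ± 35.1 and 193 ± 21.6 CPM (0.04, SE 0.165, edgeR adjusted p = 0.915); the groups overlapped and the difference lay within the spread of the libraries. Kif26b, a gene needed in the metanephric mesenchyme, gave 75, 142 and 106 reads in the controls against 65, 94 and 132 in the cKO libraries (-0.09, SE 0.492, edgeR adjusted p = 0.942). Kif26a gave 19, 2 and 0 reads in the controls against 1, 0 and 0 in the cKO libraries, and Kif28 had 2 counts in 1 control only. Both stayed under the filter.

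Families that hold both kinds of motor differed in how close their members lay in fold change. In kinesin-13, the kinetochore motor Kif2c fell by 1.6 while Kif2a, a depolymeriser of spindle poles and neurites, gave 181, 88 and 127 reads in the controls against 176, 177 and 509 in the cKO libraries. By CPM every cKO library was above every control, an order found for 16.7% of all genes tested. Kif2a was not called (1.17, SE 0.530, edgeR adjusted p = 0.25). Its fold change was 0.48 without cKO replicate 3, and its span overlaps that of Dimt1 (0.49, adjusted p = 0.227). The third member tested, Kif24, had a log2 fold change of -1.52 (not called), near that of Kif2c with 6 libraries. Every cKO library was below every control, and Kif24 was listed at 0 in cKO replicate 3. Without that library Kif24 was at -0.95 and Kif2c at -1.53. In kinesin-12, Kif15 fell by 1.70 and Kif12 was at 0.04. No member of kinesin-3, kinesin-4 or kinesin-14 was called with 6 libraries. In kinesin-14 the fold changes were -2.38 for Kifc1, -1.16 for Kifc5b, -0.59 for Kifc3 and 0.62 for Kifc2. In kinesin-3, Kif14 was at -1.63, and the 6 others ran from -0.87 for Kif1a to 0.75 for Kif13b. Without cKO replicate 3, Kif14 was at -1.06, and the others ran from -0.68 for Kif16b to 0.38 for Kif13a. In kinesin-4, Kif4 was at -1.99, and the 4 others ran from -0.33 for Kif7 to 1.54 for Kif27. Without that library Kif4 was at -1.42, and the others ran from 0.05 for Kif21a to 2.11 for Kif27. The difference between members of a family was not tested. Deposited gene ontology terms of mitosis, the spindle or cytokinesis were carried by 11 of the 12 mitotic kinesins, all but Kif15, and by 7 of the 29 others. Those 7 (Kif3a, Kif3b, Kif13a, Kif16b, Kif2a, Kifc2 and Kifc5b) had a median log2 fold change of 0.62, ranging from -1.16 to 1.17. Cilium terms were carried by none of the mitotic kinesins and by 10 of the others, of which 9 were tested (median 0.32).

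Most genes of proteins that work with mitotic kinesins at the spindle fell. Of 13 tested, 9 fell and none rose (median -1.55), and without cKO replicate 3, 12 fell. Over all genes tested, 3.59% fell with 6 libraries and 14.9% without cKO replicate 3. Prc1, the microtubule crosslinker that Kif4 binds, fell from 226 ± 10 CPM to 72.4 ± 16.9 CPM, a log2 fold change of -1.64 (SE 0.176, edgeR adjusted p = 0.00644). Birc5, the survivin subunit of the chromosomal passenger complex, fell by 1.77 (SE 0.192, edgeR adjusted p = 0.00654). Outside the naming rule, Racgap1, the partner of Kif23 in centralspindlin, fell by 1.42 (SE 0.204, edgeR adjusted p = 0.0132), beside -0.99 for Kif23. Cenpe, a kinesin-7 motor whose symbol keeps it out of the 41, was not called (-0.74, SE 0.307, edgeR adjusted p = 0.21). Of 12 general proliferation genes, 9 fell and none rose (median -1.47), where 3.59% of all genes tested fell. Relative to the control mean, the proliferation genes had medians of -1.24, -1.49 and -1.60 in cKO replicates 1, 2 and 3 on the log2(CPM + 0.5) scale, and the mitotic kinesins had -1.12, -1.96 and -1.32. Mitotic kinesins and general proliferation genes were thus both lower in the same libraries, and the part of the number of dividing cells was not tested. Both lists were drawn up with lower cell cycle genes in these libraries already known, so their direction is no independent support.

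The element searched in the kinesin promoters was also present in 7 of 10 spindle partners and in 5 of 11 proliferation genes. Of all genes with a promoter 20.2% had it, as did 14.6% of those matched among the genes tested. Within 25 bases of the start, the window chosen after the matches were seen, it stood in 5 and 2 of these genes. That placing held for 3.18% of all genes and for 2.09% of those matched among the genes tested. The element was absent from the 19 matched intraflagellar transport promoters. It was present in 1 of 19 for cytoplasmic dynein and dynactin, 1 of 15 for kinesin light chains and adaptors and 1 of 10 for tubulins. A match in these letters is a description of sequence and not a measured binding site.

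Among genes of the microtubule tracks, some fell and some rose. Of 12 tubulins tested, 5 fell and 3 rose (median -0.16), where 3.59% of all genes tested fell and 3.52% rose. Tuba1b, an alpha-tubulin abundant in dividing cells, fell by 1.12 (SE 0.121, edgeR adjusted p = 0.00649), and Tuba1a, the alpha-tubulin prominent in neurons, rose from 301 ± 25.7 to 673 ± 67.8 CPM (1.16, SE 0.113, edgeR adjusted p = 0.0057). Near-identical tubulin genes can share reads, so these values are uncertain between paralogs. Of 21 genes of cytoplasmic dynein and dynactin, the minus-end motor, 1 fell (Dynll1, -0.61, SE 0.102, edgeR adjusted p = 0.0207) and 1 rose (Dynll2, 0.80, SE 0.152, edgeR adjusted p = 0.0294), both light chains, with a median of 0.12, where 3.59% of all genes tested fell and 3.52% rose. Beside the 3.52% of all genes tested that rose, 2 of 18 kinesin light chains and adaptors rose and none fell (median 0.23). These were Kifap3 and Klc4, a light chain of conventional kinesin, which went from 50.9 ± 2.50 to 94.3 ± 23.2 CPM (0.89, SE 0.198, edgeR adjusted p = 0.0477). None of 24 intraflagellar transport genes was called by edgeR (median 0.07), and the 2 with the smallest p were Ift80 (0.59, SE 0.158, adjusted p = 0.0766) and Ift20 (0.79, SE 0.217, adjusted p = 0.0825). At an unadjusted p under 0.05 edgeR had 3 of the 24 (Ift20, Ift57 and Ift80). The DESeq2 Wald test and limma-voom with library weights called these 3, limma-voom without weights called none, and edgeR called the same 3 as higher without cKO replicate 3, where 13.7% of all genes tested rose. Over all genes the DESeq2 Wald test made 2172 calls among 17189 genes fitted, and limma-voom with library weights 3337 among 13047.

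**Figure D5:**
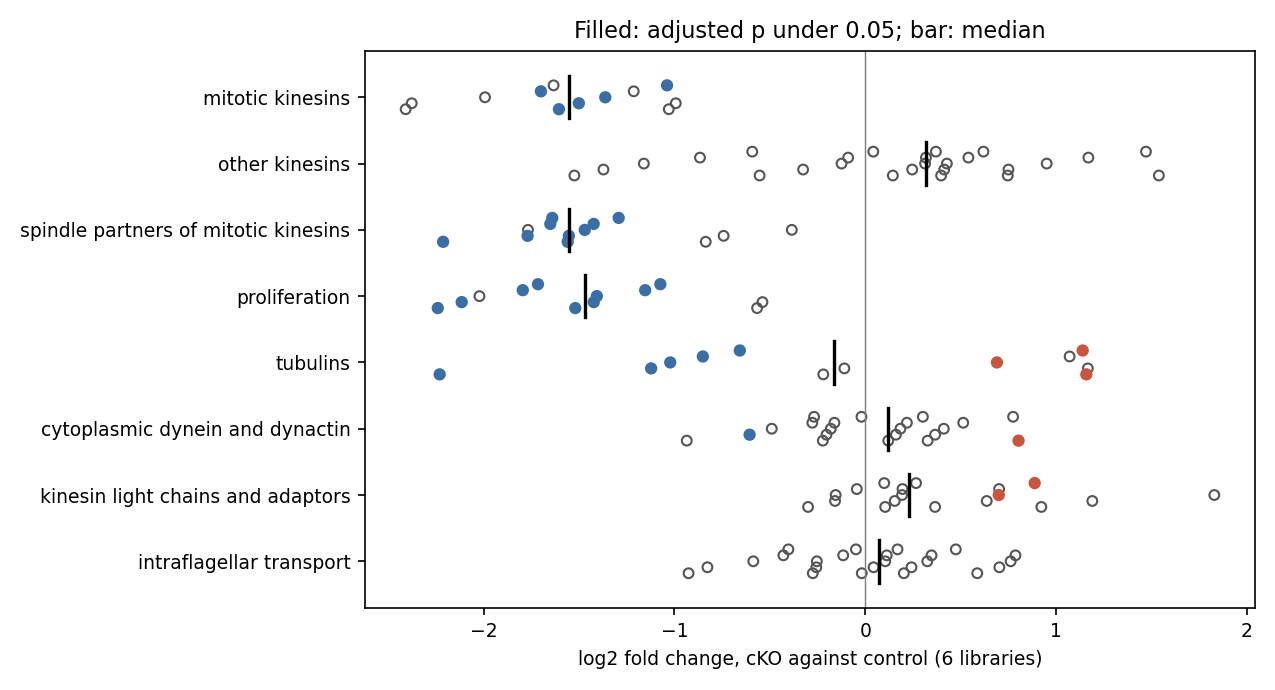
Log2 fold change with 6 libraries (x axis) for tested members of each gene list (y axis). Filled points passed an adjusted p under 0.05 (blue fell, red rose), open points did not, and black bars are medians. The bars of mitotic kinesins, spindle partners and proliferation genes lie between -1.55 and -1.47, and those of the 5 other lists between -0.16 and 0.32.

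Markers of other cell types were detected at differing levels. The 9 nephron markers in the table summed to 13.6 to 16.7 CPM in controls and 39.6 to 56.1 CPM in cKO, with Nphs1 at 0 in all libraries but cKO replicate 1. Neuronal markers, 4 in the table, summed to 0.952 to 3.32 CPM in controls and 0 to 9.24 CPM in cKO. Stromal markers, 5 in the table, summed to 6.28 to 16.3 CPM in controls and 2.19 to 15.4 CPM in cKO. The 4 endothelial markers summed to at most 3.91 CPM, and the 6 of blood and macrophages to 41.6 to 335 CPM in controls and 41.7 to 68.2 CPM in cKO. The highest of these blood sums was in control replicate 3, where the haemoglobin gene Hba-a1 alone stood at 253 CPM. The part of these cells, and of the lower ureteric markers, in the kinesin levels was not tested.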

How the data were processed

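RNA-seq of 6 sorted ureteric bud libraries (3 control, 3 cKO) was used. The authors deposited raw read counts per gene and FPKM values. Per the submitters' processing notes, the tools were Cufflinks, HISAT2, DESeq and HTSeq with the GRCm39 build. Their versions and the strand setting are not given in the labels used here. The deposited FPKM equal the counts times 1 factor per gene and 1 per library (largest relative deviation 2.54e-07), so they served for levels between genes and as an alternative scale.

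Counts were tested with edgeR 4.0.16 in R 4.3.3 (filterByExpr, TMM factors, robust quasi-likelihood F test, genotype as the only term). P-values were Benjamini-Hochberg adjusted over all 13047 genes tested, and a gene was called at an adjusted p under 0.05. SEs were derived as log2 fold change over the root of F. CPM use TMM-scaled library sizes and are given as mean ± SD over n = 3. The floor of 3 counts is 0.285 to 0.307 CPM and covers counting error only. No 2 libraries were duplicates (chi-square within groups 10.2 to 75.6 for each degree of freedom). Steps were tested on simulated counts with 200 genes changed. Lists are described by counts and medians, with no list test.

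Alternatives were DESeq2 1.42.0, limma 3.58.1 (voom, with and without library weights, and log2 FPKM with pseudocounts of 1 and 0.1), other size factors and filters, the replicate number as a block, and each library left out. Named in full by rule were all mitotic kinesins, any other called member, Kif3a, Kif3b, Kif5b, Kif7, Kif12, Kif26b and Kif2a, and the 2 genes of smallest p in each partner list. Full values of further kinesins, and Racgap1 and Cenpe, were added after their values were seen. Members and lists were chosen with earlier results of these data known. Promoters were matched by Entrez Gene identifier for 32 of 41 members. Protein sequences were not used here.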

Additional observations from a re-analysis of the deposited data

How the results depend on the processing

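The number of mitotic kinesins that fell was 11 with library weights in limma-voom, 3 with the stricter filter and 0 with the replicate number as a block, against 5. Leaving out 1 library gave 0 to 10. Deviations of same-numbered libraries were hardly correlated (-0.02, 0.03 and 0.000424), and no control resembled the cKO library of its own number best. With 3 libraries per group, such correlations cannot show whether a number marks a shared litter or day, which the labels do not state. The block left 23 genes called of 13047. Over all genes, against 928 calls, there were 2172 with the DESeq2 Wald test, 3337 with library weights, 1465 with log2(FPKM + 1), and 121 to 3897 with 1 library left out. Other kinesins that rose numbered 1 with the DESeq2 Wald test and with library weights, and 0 to 2 with 1 library left out. Those that fell numbered 1 with library weights and 0 to 1 with 1 library left out. Their median of 0.32 was 0.10 with limma-voom, 0.16 with library weights, 0.12 with log2(FPKM + 1), 0.22 with log2(FPKM + 0.1), 0.092 with log2(FPKM + 1) and no filter, 0.18 with the block, and 0.14 to 0.30 with 1 library left out. The mitotic median lay between -1.64 and -1.31 with 1 library left out. Added after the data were seen, the median without members listed at 0 in cKO replicate 3 was -1.36 for mitotic and 0.32 for other kinesins. No mitotic kinesin reversed. Uncalled others did: with library weights Kif1c (-0.37), Kif13a (0.38), Kif13b (-0.37), Kif7 (0.26) and Kif6 (-0.33), and with limma-voom Kif21b (-0.56) and Kif9 (-0.22). With 1 library left out, values crossed 0 for Kif1c (-0.40 to 0.87), Kif13a (-0.76 to 0.38), Kif13b (-0.23 to 1.23), Kif7 (-0.85 to 0.24), Kif21b (-0.12 to 1.00), Kif6 (-0.35 to 0.60), Kif26b (-0.37 to 0.13) and Kif12 (-0.10 to 0.16). The cause of these changes was not tested. Kif5a and Kif27, with under 30 counts in every library, had wide errors (SE 0.961 and 1.59 on the log2 scale).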
